A study of Caenorhabditis elegans with 6 samples.

Results

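The annular furrow collagens of the dpy class are 6 genes, dpy-2, dpy-3, dpy-7, dpy-8, dpy-9 and dpy-10, taken by their gene IDs from a table of 46661 *C. elegans* genes. All 6 passed the filter on low counts and were among the 15432 genes tested. RNA was sequenced from whole L4 larvae of N2, the wild-type, and of folr-1(syb4116), an edited line in which the folate receptor gene folr-1 carries a premature stop codon. The mutant came from 1 CRISPR/Cas9-edited line outcrossed to N2. Worms of both strains were synchronized by bleaching and kept at 20 °C, with HT115 bacteria that carried the empty RNAi vector as food. Each strain has 3 biological replicates, so p-values measure the spread between these libraries. The comparison asks how the loss of the receptor changed gene expression. Here it is followed through one structure of the cuticle.

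The nematode cuticle is a layered matrix of collagens that the epidermis secretes anew at each moult. Its surface is ringed by parallel furrows separated by raised annuli. The furrow collagens are needed together, since loss of any of them abolishes the furrows and makes the animal short and fat, the Dumpy phenotype. Their messages come early in each moulting cycle, ahead of those of other cuticle collagens. Loss of the furrows is also known to switch on osmotic, detoxification and antimicrobial genes in the epidermis, so the furrow has been described as a sensor of cuticle damage.

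No difference between folr-1(syb4116) and N2 was detected for any of the 6 furrow collagens. Their mRNA in the mutant was between 1.003 and 1.12 times that in N2. The mRNA of all 6 was lowest in the same library, replicate 2 of N2. Of 15 other body shape and blister collagens, 10 were higher in the mutant, against 3.64% of all tested genes, and 6 without N2 replicate 2. Most of them had more reads than the furrow collagens, and the difference between the groups was not tested. Their list was compiled by hand with earlier results of these data known.

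The libraries held between 21646678 and 25946226 counts. The label of the mutant was checked on folr-1 (C17G1.1), which had between 32 and 59 counts in N2 and between 7 and 14 in folr-1(syb4116). By edgeR's quasi-likelihood test its log2 fold change was -2.02, with a standard error of 0.31 (adjusted p = 4.99e-04). Of all tested genes, 6.95% were called different, 3.64% higher and 3.32% lower. The epidermis was present in these whole animals by its transcription factors: lin-26 had a mean of 53.8 CPM and elt-3 one of 21.7 CPM in N2. CPM here are the counts scaled to a common library size with TMM factors. In whole animals, fewer cells of a type and less RNA per cell cannot be told apart.

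In the WBcel235 annotation the 6 genes are protein-coding and lie on 3 chromosomes. The genes dpy-3 (EGAP7.1, X:2144605-2145647), dpy-7 (F46C8.6, X:7536467-7537792) and dpy-8 (C31H2.2, X:5148804-5150476) are on the minus strand of X, the chromosome that also carries folr-1. The gene dpy-9 (T21D12.2, IV:257403-259204) is on the minus strand of chromosome IV. The genes dpy-2 (T14B4.6, II:6714292-6715971, plus strand) and dpy-10 (T14B4.7, II:6710149-6712227, minus strand) are neighbours on chromosome II, with 2064 bp between them. They point away from each other, so the sequence just upstream of each falls in that stretch. The protein-coding gene T14B4.19, on the minus strand, reaches into it, up to 1360 bp from dpy-2. The genes have between 2 and 5 exons, and their exons sum to between 961 bp (dpy-3) and 1593 bp (dpy-10).

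The counts of 2 of the 6 genes could include reads of another gene. On the same strand, T14B4.19 overlaps dpy-10 over 1217 bp, measured between the ends of the genes. It was not analysed here, so the reads of both cannot be told apart. On the opposite strand, C31H2.14 overlaps dpy-8 over 109 bp. It had between 0 and 9 counts in a library, against 479 to 752 for dpy-8. Of the nearest protein-coding genes on either side, those that were tested were not called either. Apart from dpy-2 itself, the smallest adjusted p-value among those tested was 0.428 (edgeR), that of T14B4.5, to the right of dpy-2. Of the others, npax-2, to the right of dpy-3, had a log2 fold change of 0.22 (adjusted p = 0.520, edgeR) and ceh-14, to the left of dpy-7, one of 0.06 (adjusted p = 0.806, edgeR).

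Among the 3 X-linked members, dpy-7 is the gene whose collagen is the usual marker of the furrows. It had 470, 390 and 559 counts in N2 replicates 1 to 3. In folr-1(syb4116) it had 505, 542 and 443 counts. Scaled, this was 21.5, 17.5 and 22.1 CPM in N2 and 19.7, 22.5 and 20.6 CPM in the mutant. The mutant values lay within the range of N2 apart from replicate 2, which was slightly above it. The log2 fold change of dpy-7 was 0.04 (standard error 0.09, adjusted p = 0.867, edgeR). The 95% interval of the fold ran from 0.902 to 1.17.

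The member with the most reads, dpy-8, encodes another collagen needed for the furrows. It was at 30.4, 21.5 and 28.5 CPM in N2 and at 29.4, 29.6 and 30.6 CPM in folr-1(syb4116). The mutant libraries were close together and overlapped the upper end of N2. On the log2 scale, dpy-8 differed by 0.15 (standard error 0.09, adjusted p = 0.386, edgeR), with an interval of the fold from 0.971 to 1.28. This was the smallest p-value of the 6 genes.

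The smallest member, dpy-3, was at 17.9, 12.8 and 17.7 CPM in N2. In the mutant it was at 15.99, 17.2 and 16.7 CPM, which lies wholly inside the range of N2. The log2 fold change of dpy-3 was 0.04 (standard error 0.11, adjusted p = 0.872, edgeR), with an interval of the fold from 0.881 to 1.21.

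On chromosome II, dpy-10 is best known as a co-conversion marker in *C. elegans* genome editing, because its mutants are easy to see. It was at 20.7, 14.4 and 20.3 CPM in N2. In folr-1(syb4116) it was at 17.8, 21.2 and 18.6 CPM, and the groups overlapped. On the log2 scale, dpy-10 differed by 0.05 (standard error 0.11, adjusted p = 0.845, edgeR), with an interval of the fold from 0.880 to 1.23.

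Its neighbour dpy-2 was at 18.5, 14.2 and 18.5 CPM in N2. In folr-1(syb4116) it was at 17.6, 22.3 and 17.5 CPM. Replicate 2 of the mutant stood above the other 5 libraries, and the remaining mutant libraries were below N2 replicates 1 and 3. The log2 fold change of dpy-2 was 0.16 (standard error 0.11, adjusted p = 0.451, edgeR), with an interval of the fold from 0.952 to 1.32. Without folr-1(syb4116) replicate 2 it was 0.03. The counts of dpy-10 were between 0.950 and 1.12 times those of dpy-2 in the same library. The lowest ratio was in folr-1(syb4116) replicate 2, where dpy-2 was highest.

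On chromosome IV, dpy-9 was at 15.6, 12.6 and 17.04 CPM in N2. In folr-1(syb4116) it was at 14.7, 16.3 and 14.5 CPM, inside the range of N2. On the log2 scale, dpy-9 differed by 0.00 (standard error 0.10, adjusted p = 0.985, edgeR), with an interval of the fold from 0.863 to 1.17. It was the member with the least difference between the strains.

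**Figure D1:**
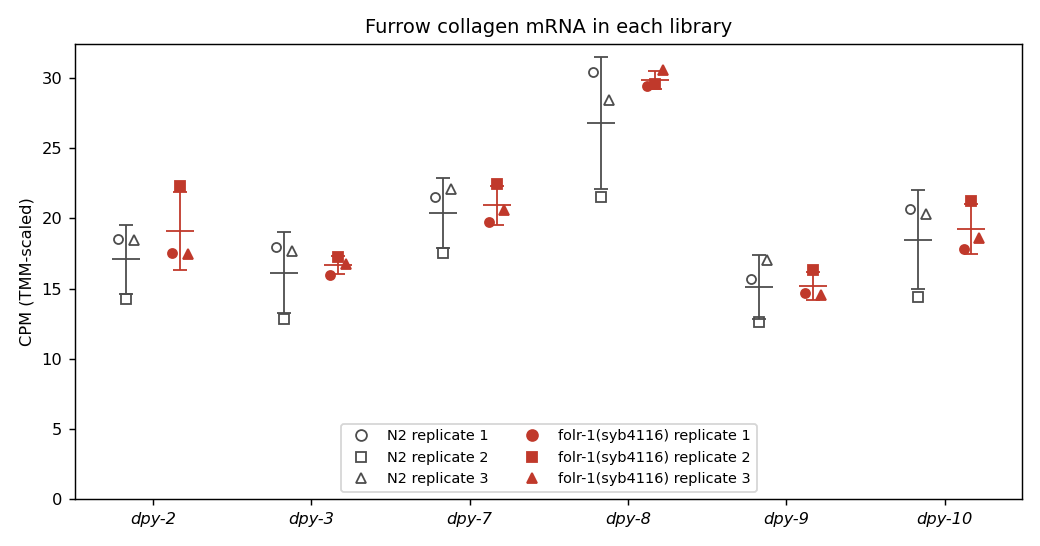
CPM of the 6 furrow collagens (TMM-scaled counts, linear axis from 0) in the 3 N2 libraries (open symbols) and the 3 folr-1(syb4116) libraries (filled symbols), with the symbol shape giving the replicate and the bars the mean ± SD of each strain. The open square, N2 replicate 2, is the lowest of the 6 libraries for every gene, and the strains overlap throughout.

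Of the 6 genes, 0 were called by edgeR at an adjusted p under 0.05, against 6.95% of all tested genes, and 0 had an unadjusted p under 0.05, against 20.2% of all tested genes. DESeq2 and limma-voom also called 0, with 0 unadjusted p-values under 0.05. For 0 of the 6 genes were the libraries of the strains apart, against 25.1% of all tested genes. The log2 fold changes were above 0 for 6 of 6 genes, against 7829 of 15432 tested genes. Their median over the 6 genes was 0.049, against 0.0028 over all tested genes. Across the 6 genes, the intervals allow a mutant level as low as 0.863 times N2 (dpy-9) and as high as 1.32 times N2 (dpy-2). These intervals are not limits of detection, and the smallest change that could be detected here was not tested.

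The sign of the small differences of dpy-3, dpy-7, dpy-9 and dpy-10 changed with single libraries, while dpy-2 and dpy-8 stayed above 0 with each library left out. Without N2 replicate 2, the log2 fold changes of dpy-3, dpy-7, dpy-9 and dpy-10 were -0.10, -0.06, -0.11 and -0.09. Those of dpy-2 and dpy-8 were then 0.05 and 0.02. Without folr-1(syb4116) replicate 2, dpy-7, dpy-9 and dpy-10 were at -0.02, -0.05 and -0.02. No call was made for any of the 6 genes with any library left out, and the smallest adjusted p-value, for dpy-8 without N2 replicate 1, was 0.146 (edgeR).

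**Figure D2:**
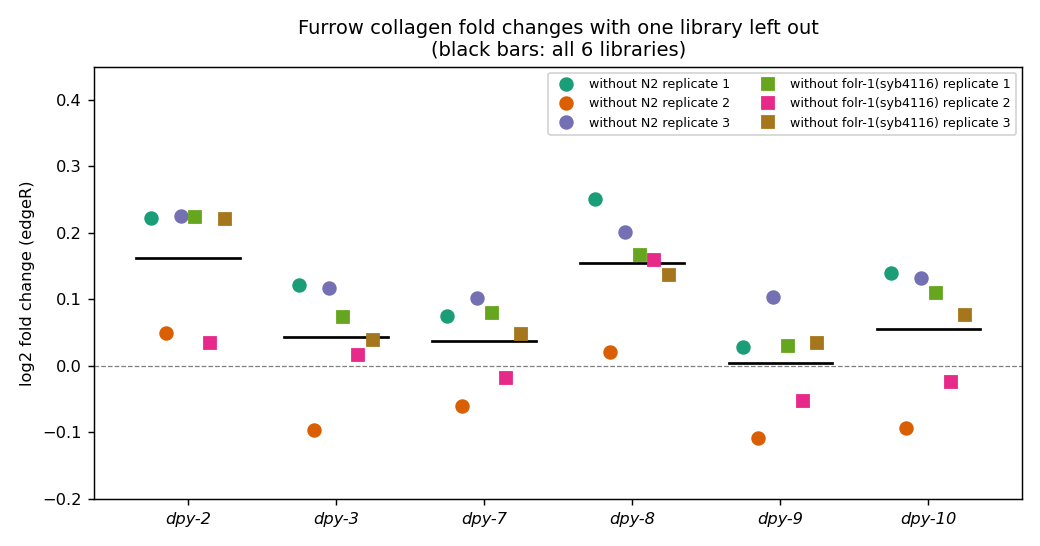
Log2 fold changes of the 6 furrow collagens (folr-1(syb4116) over N2, edgeR) with all 6 libraries (black bars) and with each library left out in turn (circles for an N2 library, squares for a folr-1(syb4116) library). The orange circles, without N2 replicate 2, lie below the black bar for every gene and below 0 for dpy-3, dpy-7, dpy-9 and dpy-10.

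The 6 genes shared one pattern over the libraries that was not a difference between the strains. In N2 replicate 2 their deviation from the mean of the other 5 libraries was between -17.7% (dpy-7) and -27.6% (dpy-8). This library was the lowest for 6 of 6 genes, where it was the lowest for 17.1% of all tested genes. A level at least 15% below the other 5 libraries was seen there for 6 of 6 furrow collagens, against 12.5% of all tested genes. The sum of the 6 genes in the N2 libraries was 125, 93.1 and 124 CPM. In the folr-1(syb4116) libraries it was 115, 129 and 118.5 CPM. N2 replicates 1 and 3 lay close together, inside the range of the mutant, and N2 replicate 2 lay below all others.

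Within N2, the spread of each gene was well above what counting reads gives. The coefficient of variation over the 3 N2 libraries was between 12.25% (dpy-7) and 19.1% (dpy-10), while counting error alone would give between 4.06% and 5.40%. Between N2 replicates 1 and 3 it was between 0.260% (dpy-2) and 6.02% (dpy-9). In folr-1(syb4116) it was between 2.15% (dpy-8) and 14.5% (dpy-2). The spread between these 2 libraries rests on a choice made after the values were seen.

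The levels of the members varied together from library to library. Over the 6 libraries, Pearson's r between the log2 CPM of 2 members had a median of 0.912 over the 15 pairs, with a range from 0.727 (dpy-8 and dpy-9) to 0.989 (dpy-7 and dpy-10). With the mean of each strain removed, the median was 0.938. Without N2 replicate 2, over 5 libraries, it was 0.716, and 5 pairs fell below 0, each of them a pair with dpy-8. The members dpy-7 and dpy-10 still had an r of 0.959. The points share libraries and scaling, so these values are a description of 6 libraries. The neighbours dpy-2 and dpy-10 had an r of 0.912 over the 6 libraries, which was the median of the pairs.

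Outside the furrow collagens, 8801 genes with a mean of at least 10 CPM were compared with the mean profile of the 6 genes. The closest was sym-1 (r = 0.988 over 6 libraries), which encodes a secreted leucine-rich repeat protein of the epidermal matrix. It was at 34.5, 26.2 and 33.3 CPM in N2 and 30.7, 35.5 and 32.3 CPM in folr-1(syb4116). Next came mab-10 (r = 0.973), the cofactor of the heterochronic regulator LIN-29, and T03G6.1 (r = 0.971). The lipocalin-related gene lpr-5 (r = 0.970), which acts in the apical matrix of epithelia, and F57H12.6 (r = 0.969) followed. These 5 genes were picked for a profile that is lowest in N2 replicate 2 and differs little between the strains. That they were lowest there, with a smallest adjusted p-value of 0.465 (edgeR), follows largely from this choice. With so many genes and 6 libraries, high values of r are bound to occur, and 73 genes had an r above 0.9.

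Levels of different genes were compared per length. In the deposited FPKM, which divide the counts by gene length and library size, dpy-7 had the highest mean, 17.8 ± 1.59 (SD, n = 6). It was followed by dpy-8 with 17.2 ± 2.09, dpy-3 with 16.96 ± 1.97, dpy-9 with 14.01 ± 1.45 and dpy-2 with 13.6 ± 1.96. The order among dpy-7, dpy-8 and dpy-3 was not beyond their spread, since dpy-7 was above dpy-8 in 4 of 6 libraries and dpy-8 above dpy-3 in 3 of 6. A step was seen from dpy-3 to dpy-9, which held in 6 of 6 libraries. The pair dpy-9 and dpy-2 did not differ beyond their spread, and was in that order in 5 of 6 libraries.

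The FPKM of dpy-10, 6.39 ± 0.859 (SD, n = 6), was far below the others, but it rests on another gene length. The ratio of count to FPKM shows that the deposited values used a length for dpy-10 that is 1.86 times its exons in WBcel235. For the other 5 genes this ratio was between 1.01 and 1.09. Per kilobase of WBcel235 exon, dpy-10 was at 11.8 ± 1.59 CPM (SD, n = 6) and next to dpy-2 at 13.7 ± 1.97. This value would be too high if the reads were counted over the longer gene model, which was not tested. In that scale dpy-10 was still the lowest of the 6 genes, below dpy-2 in 6 of 6 libraries. The whole set then ran from 11.8 to 18.7 CPM per kilobase, with dpy-8 first.

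**Figure D3:**
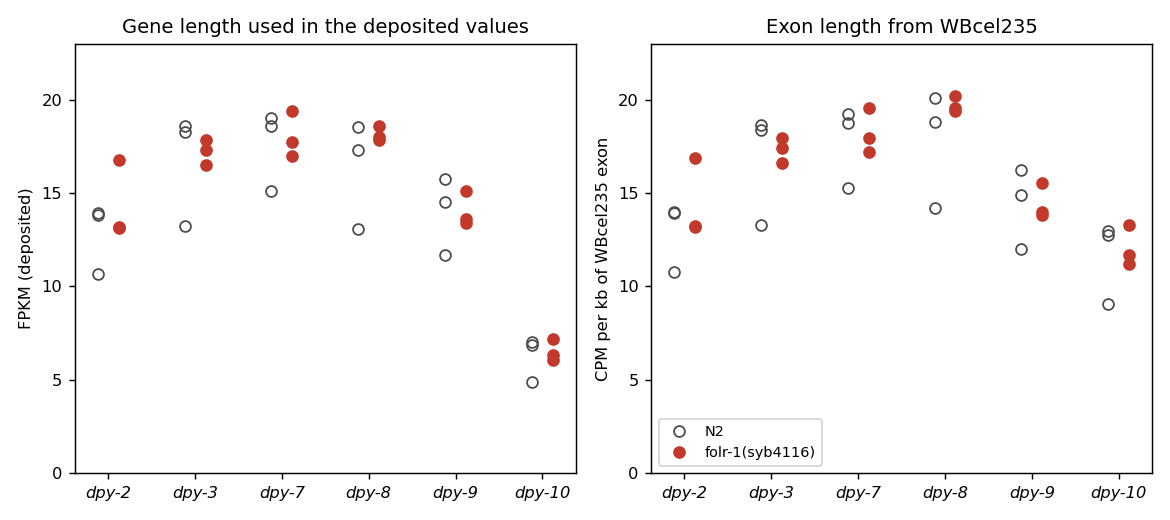
Levels of the 6 furrow collagens per length in each library, as the deposited FPKM (left) and as CPM per kilobase of WBcel235 exon (right), on linear axes from 0, for N2 (open circles) and folr-1(syb4116) (filled circles). The gap between dpy-10 and the others is wide in the FPKM and narrow with the exon length, where dpy-10 is at 11.8 and dpy-2 at 13.7 CPM per kilobase.

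Against most of the body shape and blister collagens these are modest messages at this stage. The levels of the col family were not compared with them. The mean FPKM of the 6 furrow collagens had a median of 15.5. The tested body shape and blister collagens had a median of 322 FPKM, with a range from 1.55 (dpy-17) to 1422. Over all tested genes the median was 11.8 FPKM.

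The body shape and blister collagens are other structural collagens of the cuticle. They are the products of ram-2 and of some dpy, sqt, rol, bli and lon genes, classes in which mutations give short, twisted, blistered or long animals. Of 16 listed, 15 were tested, and 10 were called higher in the mutant and 0 lower, against 3.64% of all tested genes called higher. The median log2 fold change was 0.23, with 15 of 15 above 0, against 7829 of 15432 tested genes. With limma on log2(FPKM + 1), 4 were called higher. The difference between this group and the furrow collagens was not tested. The list was compiled by hand with earlier results of these data known. The share over all tested genes was not matched for read depth.

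The smallest adjusted p-value in the group was that of dpy-5, a collagen of the annuli. It rose from 1189, 1074 and 1163 CPM in N2 to 1404, 1500 and 1367 CPM in folr-1(syb4116). Every mutant library was above every N2 library. The log2 fold change of dpy-5 was 0.32 (standard error 0.04, adjusted p = 1.76e-04, edgeR). The next were sqt-2, rol-8 and dpy-13, with log2 fold changes of 0.34, 0.35 and 0.21. Of the genes not called, dpy-4 and bli-6 had the highest levels, with log2 fold changes of 0.01 (adjusted p = 0.957, edgeR) and 0.09 (adjusted p = 0.157, edgeR).

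Replicate 2 of N2 was low in this group as well. It was the lowest library for 15 of 15 body shape collagens, with a median deviation of -22.02% from the mean of the other 5 libraries, against -24.9% for the furrow collagens. Without it, 6 of the body shape collagens were called higher. Over the group the median log2 fold change was then 0.15, with 14 of 15 above 0. For each 1000 CPM of the body shape collagens, the furrow collagens had 12.9, 10.7 and 12.9 CPM in N2. In folr-1(syb4116) they had 11.03, 11.5 and 11.6 CPM, between the low and the high N2 libraries.

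**Figure D4:**
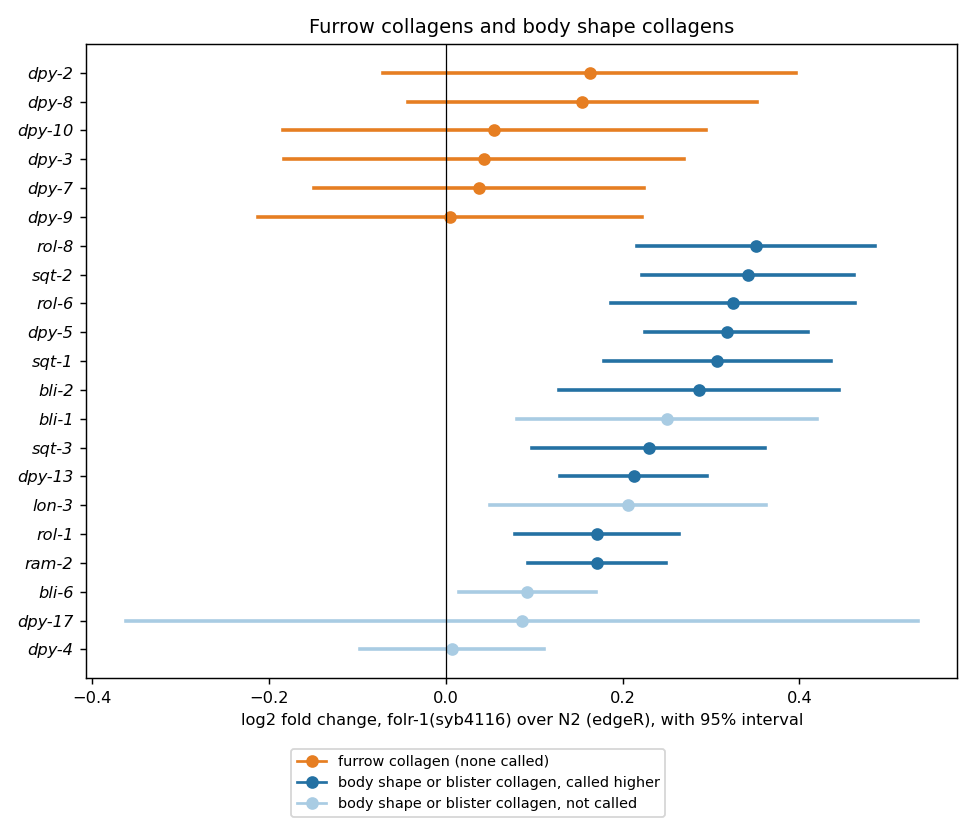
Log2 fold changes (folr-1(syb4116) over N2, edgeR) with 95% intervals for the 6 furrow collagens (orange) and the 15 tested body shape and blister collagens (dark blue where called higher, light blue where not called). The intervals of all 6 furrow collagens include 0, and 10 of the 15 other collagens were called higher. The widths of the intervals differ with read depth, so called against not called is not a comparison of fold changes.

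Genes of the moult and of the apical matrix include many that cycle with each larval stage. Of 17 genes, 2 were higher and 1 was lower, against 3.64% and 3.32% of all tested genes. The higher ones were lin-42, the worm period homologue that sets the pace of the moults, with a log2 fold change of 0.21 (adjusted p = 0.0123, edgeR), and mlt-10, a gene needed for moulting, with 0.32 (adjusted p = 0.0168, edgeR). The lower one was fbn-1, a fibrillin-like matrix protein, with -0.44 (adjusted p = 0.0385, edgeR). The number higher was 0 when replicate 2 of either strain was left out, and 1 when replicate 1 of the mutant was. The number lower was 0 when N2 replicate 1 or 3, or folr-1(syb4116) replicate 1 or 3, was left out, and with a replicate block or the length correction. With limma on FPKM no gene of the list was called in either direction. The log2 fold changes of mlt-8 and qua-1, the most abundant of those not called, were 0.12 and 0.20.

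The low N2 library was seen here too. Replicate 2 of N2 was the lowest library for 11 of 17 of these genes, and 10 were at least 15% below the other 5 libraries. Summed over the list, N2 held 1102, 923 and 1117 CPM and folr-1(syb4116) held 1112, 1241 and 1091 CPM. The stage of the animals within L4 was not measured, and its part in the level of the furrow collagens was not tested.

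**Figure D5:**
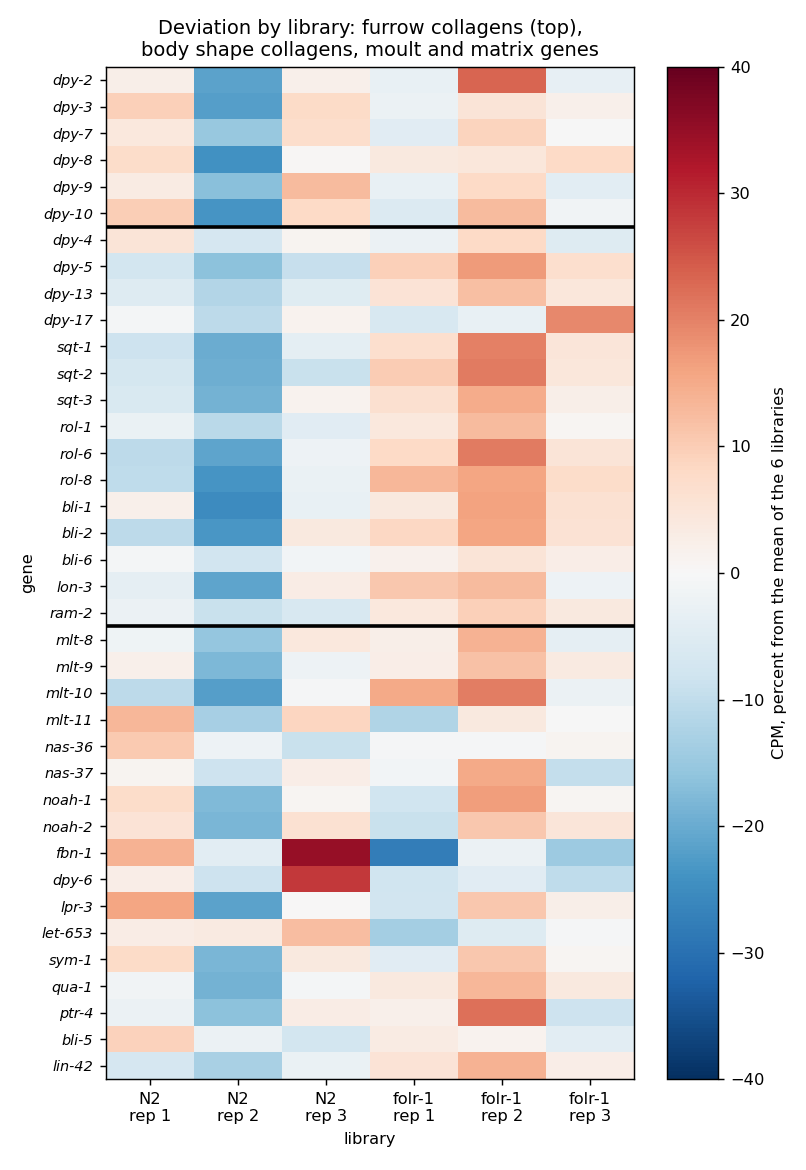
CPM of each gene in each library as the percent difference from the mean of the 6 libraries (blue below, red above) for the 6 furrow collagens (top block), 15 body shape and blister collagens (middle block) and 17 moult and apical matrix genes (bottom block). The column of N2 replicate 2 is blue for all genes of the top and middle blocks, and the lowest library for 11 of 17 in the bottom block.

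Genes for the processing and crosslinking of cuticle collagens were also compared. Of 10, 1 was higher and 1 was lower, against 3.64% and 3.32% of all tested genes. The higher one was dpy-11, a thioredoxin-like protein of the epidermis, with a log2 fold change of 0.18 (adjusted p = 0.0293, edgeR). This call was lost without N2 replicate 1, N2 replicate 2 or folr-1(syb4116) replicate 2, with a replicate block, with the length correction and with limma on FPKM. The lower one was mlt-7, a peroxidase that crosslinks the cuticle. It fell from 157, 157 and 150 CPM to 126, 119.02 and 128 CPM, a log2 fold change of -0.31 (adjusted p = 1.40e-04, edgeR). The disulfide isomerase pdi-2 and the procollagen-cleaving protease bli-4 were not called, with log2 fold changes of 0.03 and -0.12.

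Of 13 transcription factors of the epidermis, 0 were called by edgeR, against 6.95% of all tested genes. An unadjusted p under 0.05 was seen for 1, against 20.2% of all tested genes. That one was bed-3, with a log2 fold change of 0.29 (adjusted p = 0.0549, edgeR), and DESeq2 called 1 factor. The most abundant, lin-26 and nhr-23, the latter a driver of the moulting cycle, had log2 fold changes of 0.10 and 0.02. The GATA factor elt-3, which activates collagen genes in the epidermis, was at -0.10 (adjusted p = 0.507, edgeR). The genes bed-3 and elt-3 were chosen for mention once their values were known.

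The genes known to respond when the furrows are lost were examined next. Of 10 tested, 1 was called, against 6.95% of all tested genes, and that gene was higher in the mutant. This was hmit-1.1, an inositol transporter of the osmotic response. It rose from 62.6, 54.2 and 51.9 CPM in N2 to 72.1, 80.8 and 92.5 CPM in folr-1(syb4116), and the groups did not overlap. This was 0.54 on the log2 scale (standard error 0.08, adjusted p = 2.94e-04, edgeR).

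The other osmotic gene, gpdh-1, which makes glycerol, had a log2 fold change of 0.28 (adjusted p = 0.0750, edgeR). The detoxification gene gcs-1 was at 0.00 (adjusted p = 0.967, edgeR). The antimicrobial peptide gene nlp-29, the usual reporter of epidermal damage, was chosen for mention once its values were known. It was at -0.40 (adjusted p = 0.132, edgeR), the lowest of the nlp genes on the list. The other nlp genes ran from -0.35 (nlp-31) to 0.24 (nlp-28). Over the 10 tested genes of this list the median log2 fold change was -0.08, with 4 of 10 above 0. The libraries of the strains were apart for 4 of the 10, against 25.1% of all tested genes. With limma on log2(FPKM + 1), 1 gene of the list was called lower. Without the filter on low counts, 2 were called higher and 2 lower (edgeR). Against 3.64% of all tested genes, 1 of 15 genes of the signalling pathways was higher. This was osm-11, a secreted regulator whose loss turns on the osmotic response, with a log2 fold change of 0.18 (adjusted p = 0.00469, edgeR). The most abundant of the others, ptr-23 and wnk-1, were at -0.07 and 0.01.

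Markers of other tissues were compared between the strains as well. Over all tested genes, 3.64% were called higher and 3.32% lower. Of 5 body wall muscle markers 2 were lower, unc-54 and unc-22, with log2 fold changes of -0.29 and -0.39. The 5 muscle markers summed to between 9926 and 10024 CPM in N2 and between 8015 and 8982 CPM in folr-1(syb4116). The libraries of the strains were apart for 4 of these 5 genes, against 25.1% of all tested genes. They were apart for 2 of 4 intestine, 2 of 5 pharynx, 1 of 5 neuron and 2 of 5 germline markers. Of 5 pharynx markers 2 were lower (myo-1 and myo-2), with sums between 746 and 768 CPM in N2 and between 639 and 697 CPM in the mutant. Of 4 intestine markers 1 was higher (act-5), with sums between 1934 and 2039 CPM in N2 and between 2059 and 2141 CPM in the mutant. The smallest adjusted p-values (edgeR) were 0.368 among 5 neuron markers and 0.0989 among 5 germline markers. The neuron markers summed to between 205 and 215 CPM in N2 and between 210 and 213 CPM in the mutant. The germline markers summed to between 1442 and 1479 CPM in N2 and between 1386 and 1403 CPM in the mutant. None of the marker genes found in the table was at 0, and their part in the levels of the furrow collagens was not tested.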

How the data were processed

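The authors cleaned paired-end reads of poly-A RNA with fastp, mapped them with HISAT2 and counted them per gene with featureCounts. The labels name the build WBcel235, and the strand setting is not given in the sources used here. The deposited table holds raw counts of each gene in the 6 libraries, and FPKM values by the authors (RPKM in the methods) made from the counts and a gene length. Of 46661 gene IDs, 46180 were matched to 1 gene of the WBcel235 annotation, which gave symbols and positions.

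Analyses used edgeR 4.0.16, DESeq2 1.42.0 and limma 3.58.1 under R 4.3.3, and matplotlib 3.10.9 under Python 3.11.15 for plots. The filter was filterByExpr, the scaling TMM and the test edgeR's glmQLFTest after glmQLFit, with Benjamini-Hochberg adjustment over all 15432 tested genes and a threshold of 0.05. Within a strain, the chi-square of 2 libraries was 3.17 to 8.17 times its degrees of freedom, more than sampling noise, and each library was used as a replicate. The fit was tested on simulated data with known changes. Intervals are 95% and use the standard error of the fit. Counting errors cover counting only.

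Lists were compiled by hand from symbols, and the members and lists were chosen with earlier results of these data known. Besides the 6 genes and folr-1, the text names from each list up to 4 called genes, by smallest adjusted p, and up to 2 of the most abundant not called, the neighbours, and the 5 genes of most similar profile. Alternatives were DESeq2, limma-voom, limma on log2(FPKM + 1) and log2(FPKM + 0.1), other scaling and filters, a replicate block, a correction for gene length, a stricter threshold, and each library left out. Genome sequence was not used here.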

Additional observations from a re-analysis of the deposited data

How the results depend on the processing

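The count of furrow collagens called was 0 under all alternatives run. The fold changes of dpy-2 and dpy-8 kept their direction, with log2 values from 0.03 to 0.22 and from 0.02 to 0.25 with each library left out. The ranges were from -0.10 to 0.12 for dpy-3, from -0.060 to 0.10 for dpy-7, from -0.11 to 0.10 for dpy-9 and from -0.093 to 0.14 for dpy-10. With the length correction dpy-9 was at -0.012, and at -0.0053 with the length correction and a replicate block. Without the filter on low counts, 2 of the 6 genes had an unadjusted p under 0.05, and without N2 replicate 1, 1 had.

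Over all genes, 561 were higher and 512 lower. Without a filter on low counts 894 were higher, limma on log2(FPKM + 1) gave 310 higher and 268 lower, and limma on log2(FPKM + 0.1) gave 309 and 274. An adjusted p under 0.005 together with an absolute log2 fold change over 1, the stricter threshold, left 4 higher and 138 lower. With each library left out, between 335 and 529 were higher and between 337 and 470 lower, with the fewest of both without N2 replicate 2. Without folr-1(syb4116) replicates 2 and 3, 363 and 372 were higher.

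Body shape collagens called higher numbered 10. They were 4 with limma on either log2(FPKM + 1) or log2(FPKM + 0.1), 0 at the stricter threshold, and between 6 and 11 with a library left out. Over all lists and the col family, without the tissue markers, 32 genes were higher and 12 lower. These were 18 and 4 with limma on log2(FPKM + 1), 18 and 5 with log2(FPKM + 0.1), and 0 and 0 at the stricter threshold. Without a filter 26 were lower, and with a library left out between 20 and 36 were higher and between 7 and 14 lower. The cause of these moves was not tested.

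Same-numbered libraries of the strains did not deviate together (r of deviations -0.023, -0.045 and 0.013). The labels do not say whether they were grown or prepared together, and these values cannot show it. A replicate block gave 459 higher and 406 lower genes and 0 furrow collagens called, with a log2 fold change of 0.17 for dpy-8.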

Other observations

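The col family, the large set of cuticle collagens named only by number, moved in both directions. Of 124 tested genes, 17 were called higher in the mutant and 10 lower, against 3.64% and 3.32% of all tested genes. The median log2 fold change was -0.03. The called genes with the smallest adjusted p-values were col-131, col-172, col-38 and col-34. All of these were higher, with log2 fold changes of 0.83, 0.77, 0.30 and 0.39. The number lower was 5 without N2 replicate 2 and 6 without folr-1(syb4116) replicate 2. It was 6 with DESeq2, 2 with limma on log2(FPKM + 1) and 22 without the filter on low counts. Replicate 2 of N2 was the lowest library for 36 of the 124, and the sum of the family there deviated by -0.121% from the mean of the other 5.

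Of 3 collagens of the adult cuticle, 1 was lower, against 3.32% of all tested genes. The lower one was col-62, at 233, 248 and 233 CPM in N2 and 218, 180 and 214 CPM in folr-1(syb4116). Its log2 fold change was -0.22 (adjusted p = 0.0271, edgeR), and it was not called without N2 replicate 2, without folr-1(syb4116) replicate 2 or with limma on FPKM. The log2 fold changes of col-7 and col-19 were -0.19 (adjusted p = 0.0761, edgeR) and -0.05 (adjusted p = 0.639, edgeR). Replicate 2 of N2, the library lowest in furrow collagens, was highest in the sum of these 3 genes, 1511 CPM against 1200 to 1432 CPM in the other 5 libraries. In folr-1(syb4116) replicate 2, the library highest in furrow collagens, this sum was lowest, 1200 CPM.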
